A study of Homo sapiens with 11 samples.

Results

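Interior coding sequence windows were the enriched eCLIP windows whose leading annotation was plain coding sequence, while windows annotated to the start of a coding sequence, to its stop or to a coding sequence of a single exon are classes of their own. They were taken by that annotation from the 3 lists of enriched windows, 1 list for each form of RPS19, and no measured value entered the choice beyond the enrichment that put a window in a list. The R101H list held 45821 of them among 93331 windows, the R62W list 42004 among 86567, and the WT list 4909 among 15402. Over the 3 lists together there were 57368 different interior coding windows among 122708 windows. Enhanced crosslinking and immunoprecipitation (eCLIP) recovers RNA crosslinked by ultraviolet light to a protein that is then pulled down. Here the protein was RPS19 with a V5 tag, made from a transfected plasmid and pulled down with an antibody to V5, and the cells were HEK293T, derived from human embryonic kidney and carrying the SV40 large T antigen. The immunoprecipitates (IP) comprised 2 replicates with the substitution R101H, 3 with the substitution R62W and 3 with wild-type RPS19 (WT), and 3 size-matched inputs came from cells without a plasmid. All IP cells therefore also carried their own RPS19 gene, and the inputs did not carry the plasmid. Whether the replicates came from separate cultures is not in the labels, so the p-values reflect only the spread among these samples, which may be technical.

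RPS19 is a protein of the small ribosomal subunit, and substitutions in it are a cause of Diamond-Blackfan anemia, in which red cell production fails. During translation the small subunit travels along the coding sequence, after scanning the 5′ UTR and before leaving the mRNA at the stop codon. RNA from a coding exon can thus come down with a ribosomal protein that sits in a translating ribosome, and an eCLIP library cannot tell that apart from contact of the protein alone with the RNA.

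The enrichment of a window was given by the authors as a log2 odds ratio of IP over input, set against a baseline for windows of like G and C content, and the value used is their mean over the replicates in which the window passed. The sequences below show what such windows look like, read 5′ to 3′ on the transcribed strand from RefSeq intervals around gene starts (GRCh38.p14). The first 2 adjoin each other in MYH10, which encodes a non-muscle myosin heavy chain, and differ in the lists that hold them. The window at chr17:8506318-8506403 on the minus strand, with 62.8% G and C, was in all 3 lists, and the window at chr17:8506404-8506489, with 50% G and C, was in the R101H and R62W lists but not in the WT list. PHC3, a Polycomb protein gene (chr3:170102868-170102934, minus strand, 34.3% G and C), and BHLHE40, a transcriptional repressor gene (chr3:4979962-4980031, plus strand, 52.9% G and C), are shown because both passed in every replicate of both substitutions and were absent from the WT list. No motif was searched for, so no base is capitalised.
MYH10, all 3 lists: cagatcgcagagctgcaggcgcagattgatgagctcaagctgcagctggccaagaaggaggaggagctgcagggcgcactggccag
MYH10, both substitutions: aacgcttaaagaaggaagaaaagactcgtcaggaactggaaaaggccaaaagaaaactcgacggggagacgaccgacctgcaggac
PHC3, both substitutions: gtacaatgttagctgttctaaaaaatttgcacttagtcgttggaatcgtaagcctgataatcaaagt
BHLHE40, both substitutions: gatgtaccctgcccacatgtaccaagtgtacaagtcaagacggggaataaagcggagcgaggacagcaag

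The MYH10 window of all 3 lists had log2 odds ratios of 2.77 and 2.87 in the R101H replicates, 1.86, 2.33 and 2.34 in the R62W replicates, and 1.78 and 2.09 in the 2 WT replicates in which it passed. The R101H values lay above all the others, and the R62W and WT values overlapped. Its neighbour had 1.33 and 2.77 in R101H and 1.83, 2.5 and 2.99 in R62W, which overlap, and it has no WT value because a window that a list leaves out is not given one. The PHC3 window had 2.00 and 3.33 in R101H and 1.53, 2.03 and 3.23 in R62W. The BHLHE40 window had 2.03 and 3.60 in R101H and 2.17, 2.81 and 4.97 in R62W. Each of these 4 windows rested on a pooled input count of between 6 and 15 reads. Of all interior coding windows outside chromosome 8, 122 lay wholly inside a RefSeq interval, and in 122 of them the G and C content of the sequence equalled the deposited one.

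Interior coding sequence was the largest class of window in every list, but it took up a greater part of the substitution lists. Its share was 49.1% in R101H (95% Clopper-Pearson interval 48.8 to 49.4%), 48.5% in R62W (48.2 to 48.9%) and 31.9% in WT (31.1 to 32.6%). These intervals cover counting error only, and each group has 1 list, so the shares carry no test between groups. The 3′ UTR came next with 26.3% in R101H, 23.2% in R62W and 21.4% in WT. Deep intronic windows showed the opposite order, with 3.87% in R101H, 5.19% in R62W and 19.7% in WT.

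**Figure D1:**
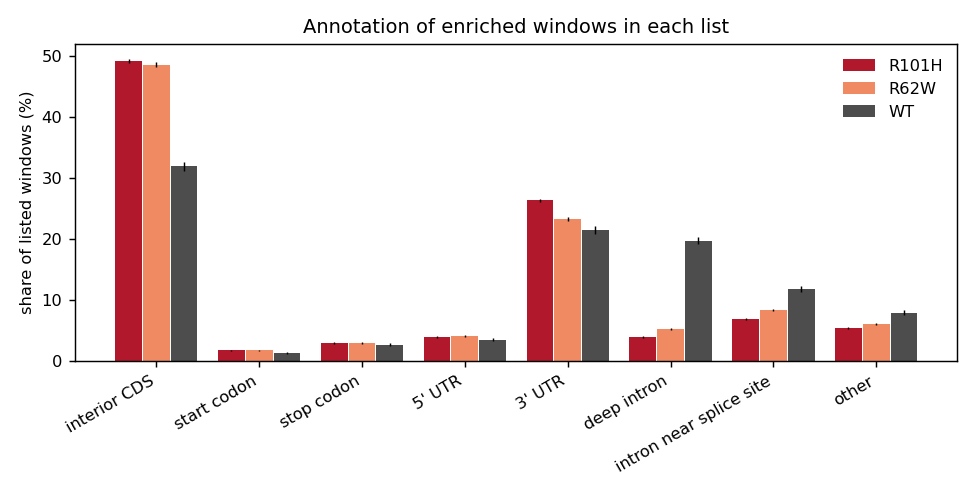
Share of each list's enriched windows by leading annotation, in percent, with exact 95% binomial intervals as error bars, for R101H, R62W and WT. The interior CDS bars stand at 49.1% in R101H, 48.5% in R62W and 31.9% in WT, and the deep intron bars run the other way.

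The gap in numbers was wider than for the lists as wholes. Interior coding windows were 9.33 times as many in R101H as in WT and 8.56 times as many in R62W as in WT, where the whole lists were 6.06 and 5.62 times as long as the WT list. Windows that passed in every replicate numbered 45821 in R101H, where all listed windows had passed in both replicates, 19540 in R62W (46.5%) and 820 in WT (16.7%). The R62W number was 23.8 times the WT number, against 11.0 times for windows of every kind. This gap was not particular to interior coding windows. Start codon windows passing in every replicate, at 637 in R62W and 27 in WT, had one of like size. Deep intronic windows, at 1438 and 875, had a much smaller one. With the list threshold on the highest q lowered to 0.05, 21765 interior coding windows were left in R101H, 11213 in R62W and 787 in WT. That q is the highest over 2 replicates in R101H and over up to 3 in R62W and WT, so the cut was less strict for R101H. Cut to the length of the WT list by rank of q, the R101H list was 49.6% interior coding sequence and the R62W list 48.9%.

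The difference in list length did not go with a like difference in enrichment of the listed windows. Interior coding windows had a median log2 odds ratio of 1.95 in R101H (quartiles 1.55 and 2.46), 1.83 in R62W (1.47 and 2.27) and 1.73 in WT (1.38 and 2.16). The median spread between replicates of a window was 0.37 in R101H, 0.36 in R62W and 0.27 in WT (SD on the log2 scale). That is a spread of single windows and does not measure the error of these medians. Each median is over the windows of its own list. Over the windows in all 3 lists the medians were further apart, at 2.40 in R101H, 2.11 in R62W and 1.72 in WT. Coding windows had lower medians than intronic ones in every list, but at higher input. Deep introns had medians of 2.33 in R101H, 2.31 in R62W and 2.88 in WT, while windows over the start codon had 1.59, 1.57 and 1.54. Median pooled input counts were 5, 5 and 4 in deep introns against 12, 14 and 16 in coding windows. The 2 classes were not compared at like input. The value of a coding window went down with its input. In R101H the median was 2.96 at pooled input counts of 0 to 4 and 1.20 at 50 or more, in R62W 2.77 and 1.19, and in WT 2.88 and 1.11.

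In size and base content the coding windows of the 3 lists were alike. Median length was 78 bases in R101H, 78 in R62W and 79 in WT, and median G and C content was 49.5%, 49.5% and 48.4%. The median pooled IP count was 51 in R101H, 50 in R62W and 57 in WT, and the median pooled input count was 12, 14 and 16. Counts were pooled over 2 replicates in R101H and 3 in the others. Most windows were annotated as coding sequence and mRNA exon alone, 80.7% in R101H, 80.1% in R62W and 77.7% in WT. A further 7.96%, 8.12% and 8.19% were also 3′ UTR of another isoform, and 5.33%, 5.53% and 6.93% also intron.

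Coding windows of the substitution lists more often stood in unbroken rows along an exon. In R101H 45.5% of them had an adjoining coding window in the same list, in R62W 45.8% and in WT 22.0%. The longest row in both substitution lists covered 25 windows and 2482 bases of WDR6, which encodes a WD-repeat protein (chr3:49011635-49014116). WDR6 had 34 interior coding windows in R101H, 32 in R62W and 17 in WT. NSD1, a histone methyltransferase gene, had a row of 22 windows in R101H and 17 in R62W, and MYCBP2 a row of 17 in each. In WT the longest row was 10 windows of the tubulin gene TUBB4B, and the next were 8 windows each in MYCBP2 and KMT2B. A list with more windows has more neighbours, and how much of the gap this makes was not tested.

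The coding windows fell in 6128 genes in R101H, 5739 in R62W and 1649 in WT. A gene with a coding window had a single one in 26.0% of cases in R101H, 25.5% in R62W and 53.4% in WT. Genes with 10 or more held 66.7% of the coding windows in R101H, 66.2% in R62W and 37.2% in WT. Many of the genes also had listed windows elsewhere in the transcript. Of the genes with a coding window, 71.8% also had a 3′ UTR window in R101H, 67.7% in R62W and 43.5% in WT. No window other than interior coding ones was listed for 14.3% of them in R101H, 16.0% in R62W and 36.5% in WT.

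Genes for very large proteins led every list. A count of windows favours them, and it was not divided by coding length, which was not used here. MDN1, an ATPase of large ribosomal subunit assembly, had 194 interior coding windows in R101H, 188 in R62W and 43 in WT. MACF1, which links actin and microtubules, had 182, 177 and 39 in the same order of groups. Ubiquitin ligase genes were frequent at the top. MYCBP2 had 174 windows in R101H, 179 in R62W and 95 in WT. HERC2 had 172, 168 and 80, HUWE1 155, 154 and 67, and UBR4 130, 134 and 50. RNF213, a ubiquitin ligase with an ATPase core, had 160 in R101H, 148 in R62W and 15 in WT. KIAA1109, a lipid transfer protein gene, had 159, 132 and 13, and the nuclear envelope protein gene SYNE2 had 134, 119 and 9. Among the 10 genes with most coding windows in WT were the chromatin regulators KMT2B, with 94 in R101H, 95 in R62W and 59 in WT, and SPEN, with 107, 106 and 59. PCNX3 had 77, 77 and 47, and AGRN, which encodes the proteoglycan agrin, had 79, 78 and 39. Counts in R101H and R62W were close for most of these genes, while the WT count was between 9 and 95.

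Of the genes, 1603 had a coding window in all 3 lists and 3572 in both substitution lists alone. Among the genes with most such windows and none in WT were NCOR1, a transcriptional corepressor, with 62 windows in R101H and 56 in R62W, and LRP2, the endocytic receptor megalin, with 64 and 34. CEP350, a centrosomal protein gene, had 50 and 47, ADGRV1, an adhesion receptor gene, 61 and 31, and the histone demethylase gene KDM5C 43 and 38. TOPBP1, a DNA replication and damage response gene, had 40 and 37, and PLCG1, a phospholipase gene, 39 and 37. LRP2 had pooled input counts of 103 over its 64 windows in R101H, so its windows rested on few input reads, whereas KDM5C had 1532 over 43.

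Only 10 genes had a coding window in WT and in neither substitution list, each with 1 window. They were AJUBA, BAG3, ID1, LGALS3BP, LIPA, NDUFB3, SELENOI, THAP3, TNFSF9 and UNC93B1. The largest value among them was 3.77 in ID1, an inhibitor of DNA binding, which rested on 1 input read, and BAG3, a co-chaperone gene, had 2.32 on 3 input reads. CPS1, the urea cycle enzyme carbamoyl phosphate synthetase, was the gene with 10 or more WT windows whose count was lowest relative to WT, with 1 window in R101H, 2 in R62W and 10 in WT. TUBB4B had 8, 8 and 12, and the heat shock gene HSPA1A 13, 16 and 15. HSPA8, the constitutive HSC70 chaperone, had 11 in each list, and so had TUBB, a beta tubulin gene. CPS1 and the tubulin and heat shock genes of this comparison were picked after their values were seen.

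Along a gene, the coding windows of WT lay more towards the 3′ end than those of the substitutions. This was examined after the values of HERC2 had been seen. In the 714 genes with at least 20 interior coding windows over the 3 lists, the windows that named a single gene were numbered from 5′ to 3′ and split into 5 parts of like size. WT windows increased from part to part, with 14.0% in the first, 16.9% in the second, 20.5% in the third, 22.7% in the fourth and 25.9% in the last. In R101H the 5 parts held between 19.4% and 20.9% of the windows, and in R62W between 19.7% and 20.6%. Past the midpoint of the numbering lay 51.5% of the R101H windows (95% exact binomial interval 50.9 to 52.1%), 50.7% of the R62W windows (50.02 to 51.3%) and 60.2% of the WT windows (58.4 to 61.9%). These intervals treat windows as independent, although many windows share a gene, so they cover counting error only. WT had windows in 496 of the 714 genes. Among windows that passed in every replicate, the share past the midpoint was 51.5% in R101H, 55.8% in R62W and 67.4% in WT. The numbering comes from windows that were listed, mostly in the substitution lists, so R101H and R62W are close to even by construction.

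Enrichment showed a 3′ lean in the substitution lists. The median log2 odds ratio went up from the first to the last part in R101H, at 1.91, 2.05, 2.11, 2.18 and 2.23, and in R62W, at 1.80, 1.89, 1.94, 1.96 and 2.01. In WT the medians were 1.77, 1.77, 1.81, 1.78 and 1.86. Median input counts hardly moved, being 12 or 13 in R101H, 14 or 15 in R62W and 14 in WT in every part. In windows that WT also listed, the median difference was 0.56 in the first part and 1.05 in the last for R101H minus WT, and 0.32 and 0.61 for R62W minus WT. These are descriptions over windows that share genes and libraries, with no test.

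**Figure D2:**
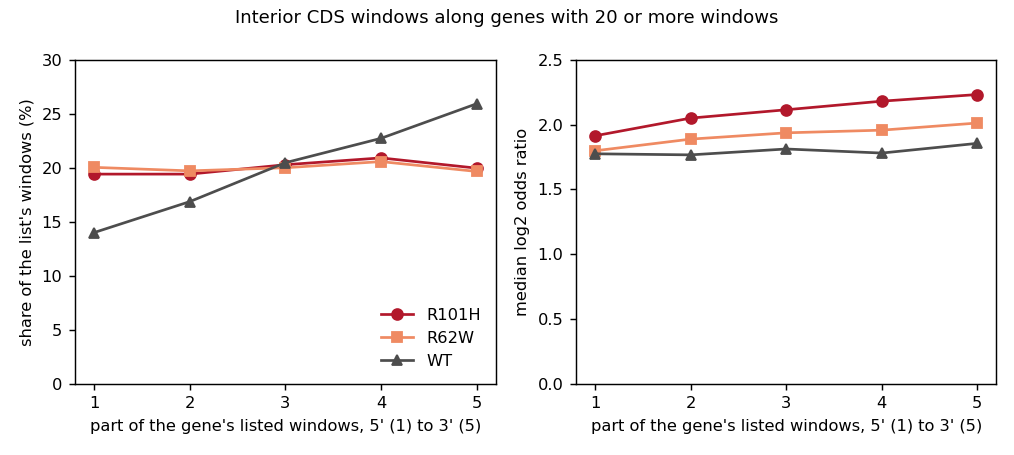
Interior CDS windows along the 714 genes with 20 or more of them, in 5 parts from 5′ to 3′, as the share of each list's windows in percent and as the median log2 odds ratio. WT shares run from 14.0% to 25.9% while R101H and R62W shares stay near 20%, and the medians go up most in R101H, to 2.23.

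HERC2 shows the pattern in a single gene. Its coding windows over the 3 lists numbered 175, of which 80 were in all 3 lists, 85 in both substitution lists alone, 7 in R101H alone and 3 in R62W alone. Past the midpoint lay 50.6% of the R101H windows, 51.8% of the R62W windows and 75% of the WT windows. In R101H the median log2 odds ratio was 2.74 before the midpoint and 3.67 past it, in R62W 2.41 and 3.22, and in WT 2.05 and 2.46. HUWE1 had 76.1% of its WT windows past the midpoint, MDN1 79.1% and UBR4 70.0%. SPEN and PCNX3 did not share the lean, with 45.8% and 48.9% of their WT windows past it. SPEN was also less enriched past the midpoint, at 2.44 in R101H, 1.99 in R62W and 1.39 in WT, against 2.86, 2.55 and 1.84 before it.

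**Figure D3:**
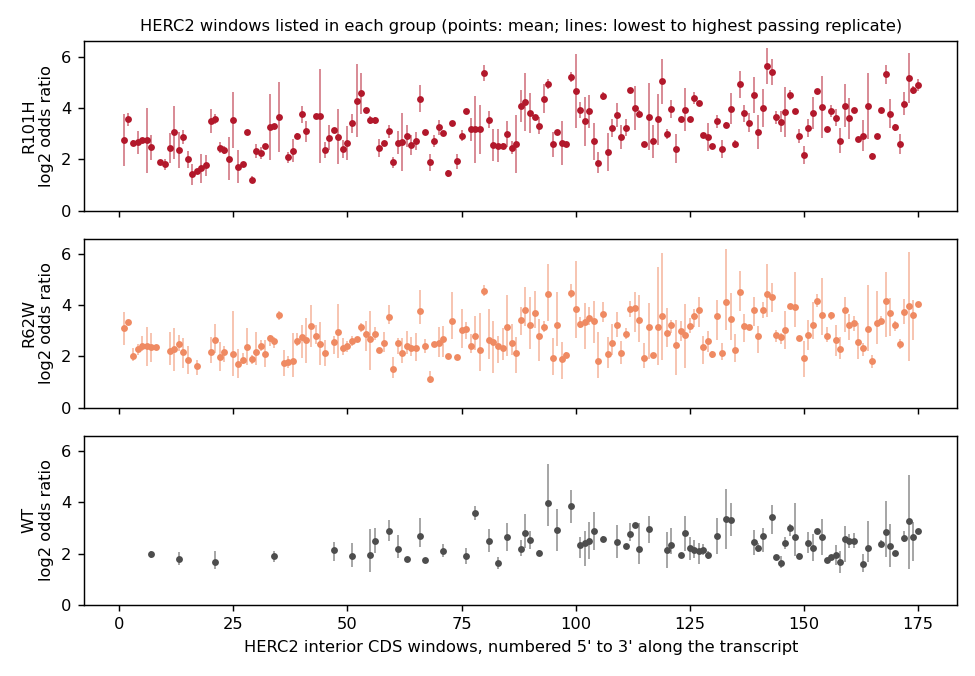
Log2 odds ratios of HERC2 interior CDS windows numbered 5′ to 3′, with points for the mean and lines from the lowest to the highest passing replicate, in R101H, R62W and WT. WT has few windows before the midpoint, with 75% past it, and the medians past it are 3.67 in R101H, 3.22 in R62W and 2.46 in WT.

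The WT coding windows were nearly all contained in the longer lists. Of the 4909 WT windows, 4416 (90.0%) were also in R101H and 4606 (93.8%) in R62W, which were 9.64% of the R101H windows and 11.0% of the R62W windows. For windows of other kinds, 63.5% of those in WT were also in R101H and 73.0% in R62W. R101H and R62W shared 30629 coding windows, 66.8% of the R101H and 72.9% of the R62W windows. In all, 4285 coding windows were in all 3 lists, 26344 in R101H and R62W alone, 15061 in R101H alone, 11054 in R62W alone and 172 in WT alone. Of the 26344 windows of both substitutions, 63.3% lay in a gene that had another coding window in WT. The lists share input samples, so overlap is given as a description.

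Where a coding window was in all 3 lists, R101H tended to be highest and WT lowest. Of the 4285, 2969 (69.3%) had the order R101H, R62W, WT from high to low, 411 (9.59%) had R62W above R101H above WT, and in 282 (6.58%) WT was highest. The medians over these windows were 2.40 in R101H, 2.11 in R62W and 1.72 in WT. The order R101H, R62W, WT held in 65 of 67 HUWE1 windows, 88 of 95 MYCBP2 windows, 71 of 80 HERC2 windows and 54 of 59 KMT2B windows. It held in only 3 of 17 windows of CTNNB1, which encodes β-catenin, and in 3 of 16 windows of CLTC, the clathrin heavy chain gene. A window below the threshold in WT has no value there, so these counts leave out the windows that WT lacks. The order was not counted for windows of other kinds. Of coding windows listed in both groups, R101H was above WT in 88.4%, against 82.5% of windows of every kind. R101H was above R62W in 72.8%, against 71.8%, and R62W above WT in 80.6%, against 72.4%.

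Testing was possible where replicate values were complete in both groups. The lowest, mean and highest values fix the replicates of a window that passed in all of them, without saying which replicate is which. limma was run on these values for every window that passed in all replicates of both groups, and p-values were adjusted by Benjamini-Hochberg over all of them at 0.05. In the comparison of R101H with WT, 200 of 814 interior coding windows rose and none fell (24.6%). Of the 2730 windows of all kinds, 18.2% were called, 17.8% higher and 0.403% lower. The share in 3′ UTR windows was close to that in coding windows, with 171 of 723 higher and none lower (23.7%). Of deep intronic windows 4.38% were called. The differences of the 200 windows ran from 1.13 to 2.41 on the log2 scale with a median of 1.62, and their adjusted p from limma ran from 0.0456 up to the threshold. In each of the 200, both R101H values were above all 3 WT values. Over the 814 windows that was so in 552 (67.8%), against 55.5% of all windows tested, and the reverse was so in 3, against 4.21%.

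The median difference of R101H minus WT was 1.11 over the 814 coding windows and 0.91 over all windows tested, so most of it was shared with windows elsewhere. Coding windows stood beside 3′ UTR windows, whose median was 1.15, and above deep intronic ones at -0.08 and start codon windows at 0.56. After the median over all windows was subtracted, the coding median was 0.20 and no coding window passed in limma, while 90 had a p under 0.05 before adjustment. None passed in limma either when all 4416 shared windows were tested, while 997 had such a p before adjustment. Pooled inputs of the 814 windows summed in R101H to 0.660 times those in WT, or 0.990 times per replicate if 2 inputs were summed for R101H and 3 for WT, which the sources do not state, and the IP counts to 0.924 times. Among windows with a WT input of 50 or more the median difference was 0.76, and among those under 10 it was 1.35.

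**Figure D4:**
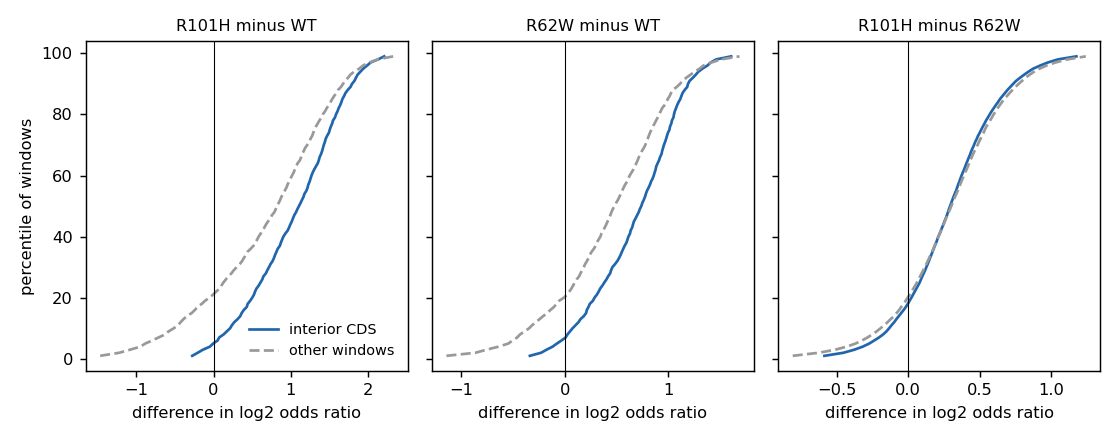
Percentiles of the difference in log2 odds ratio over windows that passed in all replicates of both groups, for interior CDS windows (solid) and other windows (dashed), in 3 panels: R101H minus WT, R62W minus WT and R101H minus R62W. The coding line lies right of the other line over most of its length in the first 2 panels, with medians of 1.11 and 0.74, and along it in the last, at 0.29.

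The windows that rose in R101H relative to WT were concentrated in a few genes for very large proteins. They lay in 79 genes, of which 52 had 1 such window, while the 5 leading genes held 76 of the 200 (38.0%). MYCBP2 had 18 among 29 tested, HERC2 17 among 35, HUWE1 17 among 20, KMT2B 14 among 34 and SPEN 10 among 19. UBR4 followed with 7 of 14, SBF1 with 5 of 8, BRD2, a bromodomain protein gene, with 4 of 4, TRRAP, an adaptor of histone acetyltransferases, with 4 of 5, and DYNC1H1, the dynein heavy chain gene, with 4 of 6. MDN1 had 4 of 11 and the Huntingtin gene HTT 3 of 4.

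Among single windows, HERC2 at chr15:28163190-28163285 had 4.15 and 4.62 in the R101H replicates, against 1.83, 2.02 and 2.52 in the WT replicates. The groups did not overlap, and the difference was 2.26 ± 0.37 (SE), with an adjusted p of 0.0456 from limma. At this window R62W had 3.17, 3.69 and 3.87, between the others. HUWE1 at chrX:53537556-53537625 rested on more reads, with pooled input counts of 40 in R101H and 60 in WT. It had 3.24 and 4.05 in R101H against 1.18, 1.79 and 1.87 in WT, a difference of 2.03 ± 0.41. KMT2B at chr19:35726295-35726353 had 3.96 and 4.94 in R101H against 1.93, 2.31 and 2.54 in WT. MYCBP2 at chr13:77125402-77125468 had 4.70 and 4.86 in R101H against 1.87, 2.73 and 3.17 in WT. MED13L, a Mediator subunit gene, had 3.75 and 4.07 in R101H against 1.60, 1.70 and 2.29 in WT (chr12:115991113-115991206). EHMT2, a histone methyltransferase gene, had 4.31 and 4.85 in R101H against 1.57, 2.40 and 2.85 in WT (chr6:31882952-31883009), with 5 pooled input reads in R101H and 13 in WT. In all of these windows the R101H and WT values stayed apart. The largest difference of all was in AC138969.4 at 2.41, followed by NPIPA5 at 2.41, genes of a family of near-identical copies on chromosome 16 among which reads may have been shared out.

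Most coding windows were also higher in R62W than in WT, but none passed the test. R62W was higher in 732 of 786 coding windows (93.1%), against 83.7% of all 2672 windows tested. The median difference was 0.74, against 0.57 over all windows tested. None of the 786 was called by limma, against 0.0374% of all windows. Before adjustment 284 had a p under 0.05, and the lowest adjusted p was 0.119. With the trended robust prior none was called either. That none passed does not show that R62W and WT did not differ. All 3 R62W values lay above all 3 WT values in 326 windows (41.5%), against 31.7% of all windows, and below them in 4, against 1.5%. The inputs of these windows were identical in R62W and WT in 87.2% of cases, and their IP counts summed in R62W to 1.10 times those in WT. The fit treated the groups as independent and took no account of shared input. Among windows with an input of at least 10 in both groups, the widest gap was in MDN1 at chr6:89654249-89654334. It had 3.31, 3.35 and 3.72 in R62W against 1.43, 1.93 and 2.21 in WT. There the groups did not overlap, and the difference was 1.61 ± 0.31 (SE), with an adjusted p of 0.119 from limma. A HUWE1 window at chrX:53558732-53558809 had 2.64, 2.79 and 2.81 in R62W against 0.84, 1.18 and 1.51 in WT.

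The 200 coding windows that rose in R101H relative to WT were all listed in R62W, in every replicate. Their medians were 3.39 in R101H, 2.79 in R62W and 1.78 in WT. The windows were chosen by their R101H and WT values, and both substitutions were set against the same WT samples, so the place of R62W between them is a description and no evidence of a shared change.

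Between the substitutions no coding window was called. Over 17676 windows the median of R101H minus R62W was 0.29, against 0.30 over all 34309 windows tested. Of the 17676, 14445 (81.7%) were higher in R101H, against 80.8% of all windows tested. None passed in limma, as in 0% of windows of every kind, which does not show that the substitutions did not differ. At an unadjusted p under 0.05 there were 359 coding windows. The 2 R101H values were above all 3 R62W values in 3268 windows (18.5%), against 19.2% of all windows, a share near the background, and below them in 130, against 1.03%. Among windows with an input of at least 10 in both groups, the largest gap lay in RPS19 itself (chr19:41861480-41861560). It had 3.46 and 4.05 in R101H against 1.47, 2.06 and 2.59 in R62W. The window was also annotated as intron near a 5′ splice site. Its pooled input counts were 27 in R101H and 38 in R62W, against 621 and 884 in the RPS19 window at chr19:41861162-41861212. The window at chr19:41861480-41861560 had 3.45, 3.51 and 3.8 in WT, so R62W was apart from both others there, but neither difference passed the test. R101H minus R62W was 1.72 ± 0.44 (SE; adjusted p = 0.940, limma) and R62W minus WT was -1.55 ± 0.35 (SE; adjusted p = 0.119, limma). PPP1R12C, a phosphatase subunit gene, had 2.77 and 2.93 in R101H against 1.17, 1.43 and 1.59 in R62W (chr19:55096115-55096178). Among the largest gaps in the other direction, those in AGRN, FLNA and PCNX1 each had 1 R62W replicate far above the rest, as in AGRN at chr1:1043823-1043889, with 1.21 and 3.14 in R101H against 1.34, 3.17 and 6.09 in R62W. A window of the phosphorylase kinase gene PHKG2 had 1.57 and 2.33 in R101H against 2.37, 2.84 and 4.18 in R62W (chr16:30753394-30753475).

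RPS19 had 5 interior coding windows in every list, each passing in every replicate. Their median log2 odds ratio was 4.88 in R101H, 5.11 in R62W and 5.32 in WT. The highest in R101H and in WT, at chr19:41861162-41861212, had 5.55 and 5.63 in R101H, 4.82, 4.96 and 5.37 in R62W, and 5.40, 5.88 and 6.13 in WT. At this window the R101H and WT values overlapped, and the R62W values lay below all of them. The 5 windows did not go 1 way, since the R62W mean was above the WT mean in 3 of them and the median difference of R62W minus WT was 0.02. In R62W the highest mean was 5.45, at chr19:41869181-41869214, against 5.43 in WT. The plasmid was present in the IP cells and absent from the input cells, and its part in these values was not tested.

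In each list the highest coding window with an input count of at least 10 was in SPIN4, a spindlin family gene (chrX:63350445-63350535), above those of RPS19. It had 5.31 and 6.92 in R101H, 6.32, 6.73 and 7.72 in R62W, and 4.98, 5.97 and 6.57 in WT, and the 3 groups overlapped. HERC2 at chr15:28130503-28130594 had 4.63 and 4.68 in R101H, 3.93, 4.12 and 4.42 in R62W, and 2.8, 2.85 and 2.95 in WT. Here the 3 groups stood apart, R101H above R62W above WT. SETD1A, a histone methyltransferase gene, had 4.31 and 4.61 in R101H, 3.52, 3.85 and 4.06 in R62W, and 2.69, 2.77 and 3.62 in WT (chr16:30963433-30963493). PIEZO1, a mechanically gated channel gene, had 2.99 and 6.13 in R101H, 2.60, 2.62 and 5.60 in R62W, and 1.45, 1.57 and 3.93 in WT (chr16:88717117-88717211), so that in each group the highest replicate was far above the others. Windows of NBPF20 and NBPF14, a family with many near-identical copies, reached 6.72 and 6.52 in R101H on 0 input reads each.

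Grouped by function, the lists with most windows that rose in R101H were those of giant ubiquitin ligases and chromatin regulators, and in several lists a single gene held much of the count. The gene lists were chosen with earlier results of these data known, so their shares are a description. Of 114 coding windows tested in giant ubiquitin ligase genes, 62 (54.4%) rose in R101H relative to WT and none fell, with a median difference of 1.60. HERC2 held 35 of the 114. Most of the 62 were in genes already named above, with 18 in MYCBP2, 17 in HERC2, 17 in HUWE1 and 7 in UBR4. Chromatin regulators had 23 of 52 (44.2%), with a median of 1.55, and KMT2B held 34 of the 52 and 14 of the 23. Giant cytoskeletal and motor protein genes had 8 of 22 (36.4%), with 1.23. Ribosomal subunit assembly factors had 4 of 12 (33.3%), with 1.59, but MDN1 held 11 of the 12 and all 4 that rose. Translation initiation factors had 3 of 4, with 1.25, nuclear pore protein genes 2 of 7, with 1.17, and ZNF zinc finger genes 1 of 1, at 1.62. In all coding windows tested, these lists included, the share higher was 24.6% and the median 1.11, and in windows of every kind 17.8% and 0.91. Chaperone genes had 0 of 27, with a median of 0.22, DEAD and DEAH box helicases 0 of 11, with 0.61, oxidative phosphorylation genes 0 of 9, with 0.51, and SR proteins and hnRNPs 1 of 16, with 1.01. None of the windows of these lists was called for R62W minus WT, where the median was 1.02 in giant ubiquitin ligases, 0.96 in chromatin regulators and 0.12 in chaperones.

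Few windows of the protein synthesis apparatus itself were tested. Small subunit ribosomal protein genes had 6 windows, with 0 called and a median of -0.23 for R101H minus WT and 0.03 for R62W minus WT. Of the 6, 5 were those of RPS19, the transfected gene, so these medians are close to a value of that gene alone. Large subunit genes had 2 windows, of which 1, in RPL23A, rose in R101H. No window of an elongation or termination factor, an aminoacyl-tRNA synthetase or a kinase related to PI3K was tested in either comparison with WT. Erythroid genes held coding windows in 1 of 20 members in each list, the transferrin receptor gene TFRC, with 8 windows in R101H, 6 in R62W and 3 in WT.

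Over all shared coding windows, tested or not, giant ubiquitin ligases had the largest median difference of R101H minus WT among the 19 lists, while other lists changed place. The 378 windows of giant ubiquitin ligases shared by R101H and WT had a median difference of 1.28, and 367 of them were higher in R101H. All 4416 shared coding windows had a median of 0.65, and 3903 (88.4%) were higher in R101H. Of shared windows of every kind, 82.5% were higher in R101H. Ribosomal subunit assembly factors had 1.17 over 50 windows, 43 of them in MDN1, and chromatin regulators 1.13 over 235. Nuclear pore proteins had 0.61 over 41 windows and initiation factors 0.49 over 33, both below the median of all shared coding windows, although their few tested windows had medians above that of all windows tested. Small subunit ribosomal proteins had 0.24 over 10. Among the lists with at least 10 shared windows, the lowest were chaperones, which had 0.14 over 56, cohesin and condensin, with 0.14 over 15, and the proteasome, with 0.20 over 30. For R62W minus WT the giant ubiquitin ligases had 0.76, the chaperones 0.01, and all 4606 shared coding windows 0.34. The list counts differed as well. ZNF zinc finger genes had 461 coding windows in R101H, 367 in R62W and 13 in WT, and giant ubiquitin ligases 1405, 1351 and 382. Chaperones had 153, 158 and 67, and small subunit ribosomal proteins 22, 24 and 10.

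**Figure D5:**
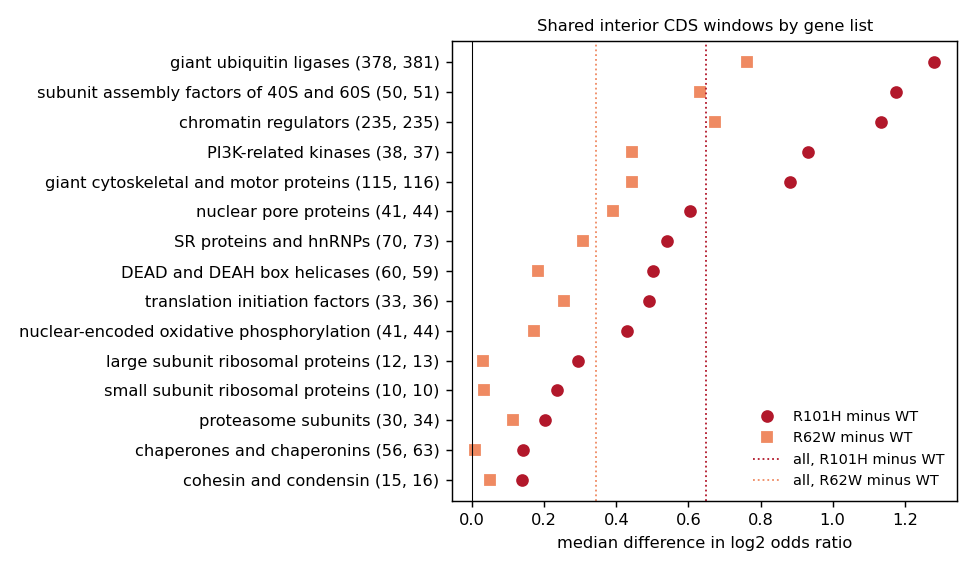
Median difference in log2 odds ratio of interior CDS windows listed in both groups, by gene list with at least 10 of them, for R101H minus WT (circles) and R62W minus WT (squares), with the number of windows of each in parentheses and dotted lines at 0.65 and 0.34 for all shared coding windows. Giant ubiquitin ligases lie highest at 1.28 and 0.76, and cohesin with condensin and chaperones lie lowest of those drawn at 0.14 for R101H.

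Among the 82 genes with at least 10 coding windows shared by R101H and WT, the gene median of R101H minus WT ran from -0.07 to 1.56, with a middle value of 0.99. For R62W minus WT it ran from -0.17 to 1.10, with a middle value of 0.54. GIGYF1, a translational repressor gene, was highest for R101H at 1.56, with 10 of 10 windows higher than in WT, and KMT2B, HUWE1 and SPEN had 1.40, 1.40 and 1.39. HSPA1B and HSPA1A were lowest at -0.07 and -0.04, with 5 of 10 and 6 of 12 windows higher in R101H. CTNNB1 had 0.02, FDXR, a mitochondrial ferredoxin reductase gene, 0.02, CLTC 0.06, HSPA8 0.25 and TUBB 0.32. These genes were picked by their difference after the values were seen, so their place in the order is a description. HSPA1A and HSPA1B are near-identical copies on chromosome 6, so their reads cannot be told apart with certainty.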

How the data were processed

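Members and gene lists were chosen with earlier results of these data known. fastp, STAR and the GRCh38 build are named in the submitters' processing notes, without versions, and which program called the windows was not found in the sources used here. Per the file headers, each of the 3 deposited tables gives, for 1 IP group, whole-number read counts of IP and input per window, summed over its replicates. The authors' enrichment is a log2 odds ratio of IP over input, deposited as the lowest, mean and highest of the passing replicates. The deposited q-values come from the enrichment test of the authors, and per the file headers the tables also hold the fraction of G and C bases and, as another quantity, the number of passing replicates. In every list the highest q was under 0.2 and at least 2 replicates passed. Tables of repeat elements were not used. No total per library is given, so depth is unknown.

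Windows with the leading annotation CDS were counted, with exact Clopper-Pearson intervals (SciPy 1.17.1). Coordinates are 1-based, and shared windows have identical coordinates. Replicate values, rebuilt from the lowest, mean and highest, were compared with limma 3.58.1 (R 4.3.3; lmFit, eBayes), checked on simulated data. Pooled counts allowed no count model. Named genes were, per list, the 10 with most coding windows and the 8 with the highest window at an input of at least 10, the largest differences per comparison, genes of both substitutions or of WT alone, RPS19, and the leading genes of 19 gene lists. Others are said to be picked after their values were seen. Some genes that the rule takes in are not reported here.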

Additional observations from a re-analysis of the deposited data

How the results depend on the processing

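Coding windows numbered 21765 in R101H, 11213 in R62W and 787 in WT at a highest q of at most 0.05, 27507 in R101H and 27552 in R62W with an input of at least 10, and 19540 in R62W and 820 in WT when enriched in every replicate. Their share was 50.4%, 49.6% and 26.3% at that q, 52.5%, 53.0% and 41.7% with that input, 32.0%, 33.0% and 28.3% with 1 window per gene (each R101H, R62W, WT), 49.6% in R101H and 48.9% in R62W at equal list length, and 50.8% in R62W and 23.3% in WT for windows in every replicate. Shared windows numbered 704 (R101H and WT), 640 (R62W and WT) and 8706 (R101H and R62W) at that q, and 814, 786 and 17676 when enriched in every replicate. With all shared windows fitted, the median difference was 0.65 for R101H minus WT and 0.34 for R62W minus WT, and 0 coding windows were called for R101H minus WT in place of 200. Centring gave medians of 0.20, 0.17 and, for R101H minus R62W, -0.0038, which reversed, and again 0 calls for R101H minus WT, in limma. The trended robust prior called 300 of 814 coding windows there (36.9%), against 28.1% of all windows tested. With the input minimum 291 of 612 were called (47.5%), against 48.1% of all windows tested, so coding windows then had no excess. Neither setting called any coding window for R62W minus WT or R101H minus R62W. In genes with at least 50 windows, a setting chosen after seeing the data, 51.8% of R101H, 51.5% of R62W and 63.7% of WT windows lay past the midpoint. Medians of the log2 odds ratio moved by less than the replicate SD under every setting tried. No paired analysis was possible because the replicate values carry no replicate number, and leaving out each replicate was not run for the same reason. Low input counts limit single windows: 40% of coding windows in R101H, 34.4% in R62W and 29.0% in WT had fewer than 10 pooled input reads.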
